A study of Mus musculus with 44 samples.

Results

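The 9 transcription factors described here, Spi1, Irf8, Sall1, Mef2c, Runx1, Cebpa, Ikzf1, Tal1 and Bhlhe41, are genes associated with the identity of microglia, the resident macrophages of the brain. They were chosen by symbol, matched to Ensembl identifiers with the GENCODE M21 annotation, and read in every count file. All 9 were among the 50714 gene identifiers shared by the files of all 44 libraries, and all 9 passed the filter on low counts in each fit.

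Macrophages are specified by a small circuit of DNA-binding proteins. PU.1, the product of Spi1, opens macrophage enhancers and binds composite sites together with IRF8, while RUNX1, C/EBPα, Ikaros (Ikzf1) and TAL1 act in blood and myeloid development. SALL1 and MEF2C are associated with the microglial state in particular, with Sall1 largely restricted to microglia among macrophages and Mef2c also abundant in neurons, and BHLHE41 is a repressor of the basic helix-loop-helix family known from the circadian clock and from tissue macrophages.

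RNA was taken from the dorsal cortex and hippocampus, with harvest of the mice on postnatal days 28 to 29. All groups carried CX3CR1-CreERT2, a Cre recombinase that tamoxifen activates and that the Cx3cr1 promoter drives in microglia and other macrophages, together with a floxed RPL10a-GFP allele. GFP-tagged ribosomes can then be pulled down with their RNA, which is translating ribosome affinity purification (TRAP). Tamoxifen was given at 100 mg/kg on postnatal days 15, 17 and 19. The sample labels give vehicle for the controls, though the series text calls them untreated. The labels give both alleles as +/-, whereas the series text gives the RPL10a-GFP allele as fl/fl. Each library letter had 4 fractions: Input is the whole homogenate, MG_TRAP the GFP precipitate from homogenate, SN_input the synaptosome fraction of pinched-off synapses with attached processes, and PeMP_TRAP the GFP precipitate from that fraction, where PeMP stands for the peripheral microglial process. Each fraction had 3 control libraries, lettered A to C, and 8 from tamoxifen mice, lettered D to K. Letters A to F form a first set and G to K a second set by title style, the second set calls its last fraction SN_TRAP, and controls were in the first set only. Counts by letter below set same-lettered libraries side by side. The labels do not say that each letter is a separate mouse, so p-values measure only the spread between these libraries.

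Libraries held 740679 to 35427238 reads in the shared genes, so that 3 counts, taken as the upper limit behind a count of 0, equalled 0.0792 to 4.89 CPM (CPM is the usual count scaled to library size, here the TMM effective size). The PeMP_TRAP libraries of the second set held 20352794 to 35427238 reads and detected 5372 to 7369 genes. Second-set MG_TRAP held 13268654 to 27458252 reads and detected 12488 to 16515 genes. The 22 microglial surface, secreted and lysosomal genes checked as markers summed to 257 to 410 CPM in tamoxifen Input and 18490 to 63830 CPM in tamoxifen MG_TRAP, so the precipitates carried microglial RNA. In bulk RNA, fewer cells of a type and less RNA per cell cannot be told apart.

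RefSeq promoter windows (GRCm38.p6, 250 bases before to 50 after a transcription start) were matched for 8 of the 9 factors, with 16 windows in all. The 250 bases upstream are printed for Irf8 and Cebpa, which rose in both precipitates, for Mef2c, which rose in neither, and for Bhlhe41, whose window holds one of the motifs searched. Capitals mark a motif match.
Irf8: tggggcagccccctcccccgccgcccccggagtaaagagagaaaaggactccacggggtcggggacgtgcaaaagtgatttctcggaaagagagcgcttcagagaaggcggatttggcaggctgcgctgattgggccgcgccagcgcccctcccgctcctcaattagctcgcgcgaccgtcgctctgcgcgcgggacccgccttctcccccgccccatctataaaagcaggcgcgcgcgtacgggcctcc
Cebpa: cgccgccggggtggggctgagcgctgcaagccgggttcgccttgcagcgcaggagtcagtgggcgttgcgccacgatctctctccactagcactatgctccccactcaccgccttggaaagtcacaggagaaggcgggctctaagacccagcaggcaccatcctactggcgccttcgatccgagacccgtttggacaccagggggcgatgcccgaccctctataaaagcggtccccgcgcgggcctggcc
Mef2c: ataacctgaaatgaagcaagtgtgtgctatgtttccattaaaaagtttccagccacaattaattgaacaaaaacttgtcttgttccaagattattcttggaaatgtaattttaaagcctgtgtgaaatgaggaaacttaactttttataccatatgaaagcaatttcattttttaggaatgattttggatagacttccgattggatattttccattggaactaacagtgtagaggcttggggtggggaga
Bhlhe41: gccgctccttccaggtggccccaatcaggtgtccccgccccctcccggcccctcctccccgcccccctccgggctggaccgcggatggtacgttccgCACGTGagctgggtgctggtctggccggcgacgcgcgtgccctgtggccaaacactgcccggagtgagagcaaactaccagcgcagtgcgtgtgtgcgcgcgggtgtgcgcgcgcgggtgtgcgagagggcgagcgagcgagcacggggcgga
The Irf8 stretch lies at chr8:120736108-120736357 on the plus strand, that of Cebpa at chr7:35119043-35119292 (plus), that of Mef2c at chr13:83503784-83504033 (plus) and that of Bhlhe41 at chr6:145865421-145865670 (minus). The motifs were searched on both strands of the full windows, and none contains another. The PU.1 motif GAGGAAGT was in none of the 16 windows and in 3.20% of the 32851 windows of all genes. The ETS-IRF composite motif was in none, against 2.72% of all windows, and the C/EBP palindrome TTGCGCAA was in none, against 0.183%. The RUNX motif TGTGGTT was in 1 window of Runx1, against 5.27% of all, at a place outside the 250 upstream bases. The E-box CACGTG, a motif that BHLHE41 and its relatives are known to bind, was in 2 windows, those of Bhlhe41 and Runx1, against 7.15% of all. Upstream GC content ranged from 33.6% at the first Mef2c start to 82.0% at the first Ikzf1 start, with a median of 52.4% over all windows. The number of CpG dinucleotides ranged from 1 to 44, with a median of 6 over all windows. The 3 windows of Mef2c held 1, 6 and 4, while those of Irf8 held 29 and 8. Spi1 was the factor not matched.

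The first comparison asked which of the factors were recovered with tagged microglial ribosomes from whole tissue. After tamoxifen, 6 of 9 were higher in MG_TRAP than in Input and none was lower in edgeR's quasi-likelihood test over 32 libraries, in which 6.82% of 15710 genes were called in either direction. Those 6 were Spi1, Irf8, Sall1, Cebpa, Ikzf1 and Bhlhe41. Runx1 and Tal1 had fold changes of like size with wide errors, and Mef2c stood near 0. The median log2 fold change of the 9 was 4.30, beside -0.14 over all genes tested. For 4 of 9 factors every MG_TRAP library lay above every Input library, as for 5.47% of all genes tested.

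**Figure D1:**
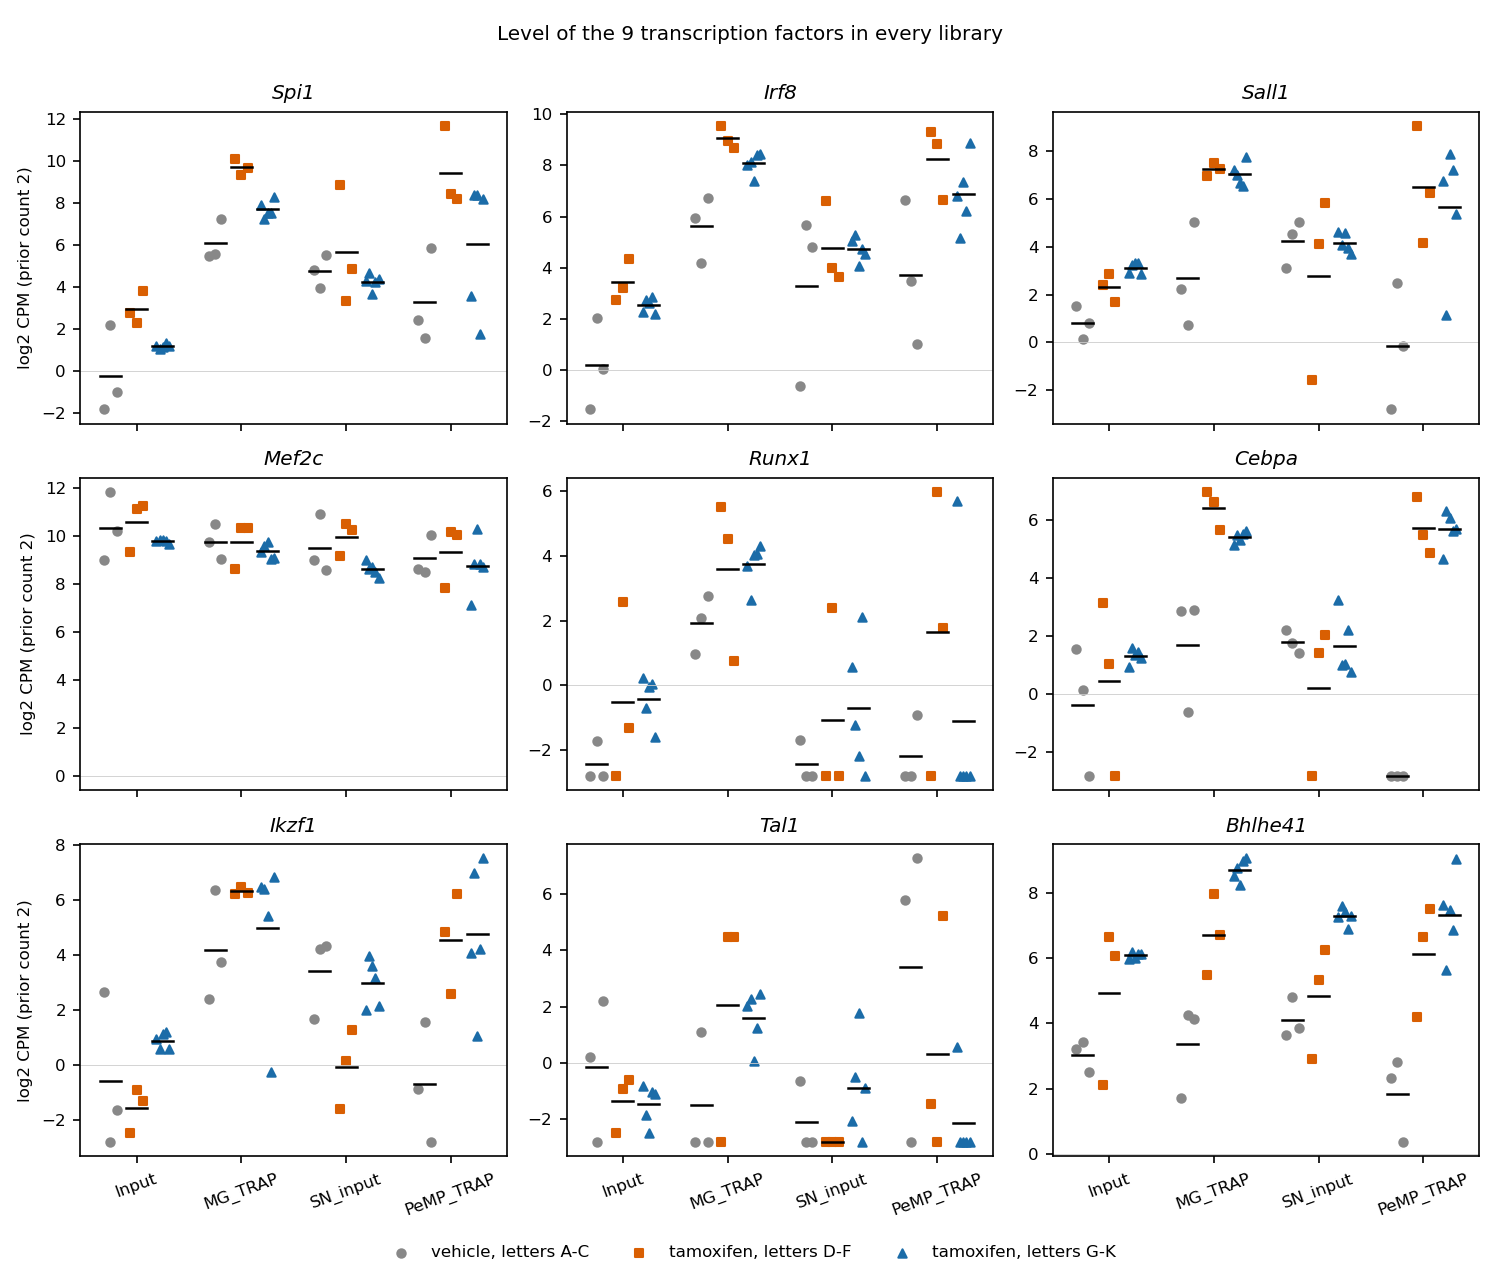
Level of each factor in every library on the log2 CPM scale (prior count of 2), by fraction on the horizontal axis, with vehicle libraries as circles, first-set tamoxifen libraries as squares, second-set tamoxifen libraries as triangles and group means as bars. Spi1, Irf8, Sall1 and Cebpa stand higher in all 8 tamoxifen MG_TRAP libraries than in all 8 Input libraries, while Mef2c stays between 7 and 12 in every fraction.

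Spi1 (ENSMUSG00000002111, chr2:91082390-91115756, plus strand) encodes PU.1. Its level in tamoxifen Input was 1.93 to 13.7 CPM with a median of 2.24, and in MG_TRAP 150 to 1101 CPM with a median of 276 (n = 8 each). All MG_TRAP libraries lay above all Input libraries, and first-set MG_TRAP (641, 801 and 1101 CPM) lay above second-set MG_TRAP (150 to 314 CPM). The log2 fold change was 6.70 ± 0.81 (SE; edgeR adjusted p = 8.0e-08), and it was 6.68 in the first set alone and 6.71 in the second set alone. In the synaptosome fraction SN_input held 9.88 to 467 CPM with a median of 19.8, and PeMP_TRAP 3.26 to 3289 CPM with a median of 314. One SN_input library, D, stood at 467 CPM while the other 7 were at 28.7 CPM or less. PeMP_TRAP libraries G and J were at 11.8 and 3.26 CPM while the other 6 were at 293 CPM or more, so PeMP_TRAP overlapped SN_input and was higher in 6 of 8 letters. PeMP_TRAP exceeded SN_input by a log2 fold change of 3.18 ± 0.69 (edgeR adjusted p = 0.00069).

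Irf8 (ENSMUSG00000041515, chr8:120736358-120756694, plus strand) encodes the interferon regulatory factor that partners PU.1. Tamoxifen Input held 4.40 to 19.9 CPM with a median of 6.57, and MG_TRAP 168 to 748 CPM with a median of 342. The groups did not overlap, and the difference was 5.61 ± 0.61 on the log2 scale (edgeR adjusted p = 6.1e-09), with 5.54 in the first set alone and 5.65 in the second. SN_input held 12.4 to 98.2 CPM with a median of 25.04, and PeMP_TRAP 35.3 to 629 CPM with a median of 138. PeMP_TRAP was higher in 7 of 8 letters, though second-set libraries of the pair overlapped. The difference was 2.85 ± 0.54 (edgeR adjusted p = 0.00019). Another gene model, Gm20388, spans Irf8 on the same strand without sharing exons.

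Sall1 (ENSMUSG00000031665, chr8:89027235-89044162, minus strand) encodes a zinc-finger repressor that holds microglia apart from other macrophages. Its levels were 3.10 to 9.97 CPM in tamoxifen Input (median 7.27) and 93.6 to 218 CPM in MG_TRAP (median 138), with no overlap. The log2 fold change was 4.30 ± 0.82 (edgeR adjusted p = 0.00034). It was 4.92 in the first set alone, where the adjusted p was 0.065, and 4.04 in the second set. SN_input held 0.190 to 56.3 CPM (median 17.02) and PeMP_TRAP 2.10 to 539 CPM (median 92.1). The lowest SN_input value, in library D, came from a count of 1, and the lowest PeMP_TRAP value was that of library H. PeMP_TRAP was higher in 7 of 8 letters, at 2.80 ± 0.76 on the log2 scale (edgeR adjusted p = 0.0046).

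Mef2c (ENSMUSG00000005583, chr13:83504034-83667080, plus strand) encodes a MADS-box factor of neurons and microglia. Tamoxifen Input held 652 to 2421 CPM with a median of 899.6, and MG_TRAP 398 to 1284 CPM with a median of 713. Its Input level was above its MG_TRAP level in all 8 letters, yet the groups overlapped and the log2 fold change of -0.51 ± 0.37 did not pass the test (edgeR adjusted p = 0.59). SN_input (302 to 1460 CPM, median 461) and PeMP_TRAP (139 to 1265 CPM, median 459) overlapped throughout, with PeMP_TRAP higher in 4 of 8 letters and a log2 fold change of 0.14 ± 0.38 (adjusted p = 0.82). Beside this, the summed level of 10 neuronal marker genes was 9973 to 14817 CPM in tamoxifen Input and 1591 to 5601 CPM in tamoxifen MG_TRAP, and 945 to 7005 CPM in tamoxifen PeMP_TRAP. None of the 10 was at 0 in all libraries of a first-set group, and 2 were at 0 in all second-set PeMP_TRAP libraries. The part of neuronal RNA in the Mef2c values was not tested.

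Cebpa (ENSMUSG00000034957, chr7:35119293-35121928, plus strand) encodes C/EBPα, a basic leucine zipper factor of myeloid cells. It was low in tamoxifen Input (0 to 8.76 CPM, median 2.33) and SN_input (0 to 9.30 CPM, median 2.23). MG_TRAP held 35.3 to 125 CPM (median 47.7) and PeMP_TRAP 25.3 to 110 CPM (median 50.9). Both precipitates lay above both inputs in every library, the only factor of the 9 for which this held in the synaptosome comparison, where it held for 0.56% of all genes tested. The log2 fold changes were 4.44 ± 0.91 for MG_TRAP over Input (edgeR adjusted p = 0.00095) and 4.13 ± 0.90 for PeMP_TRAP over SN_input (edgeR adjusted p = 0.00075). With the first set alone the first was 4.69 with an adjusted p of 0.17, and the second was 4.86 with an adjusted p of 0.12. The antisense gene Gm45091 shares exonic bases with Cebpa. The libraries do not mark strand, so reads in the shared bases cannot be assigned by strand, and how HTSeq treated them is not given.

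Ikzf1 (ENSMUSG00000018654, chr11:11685003-11772926, plus strand) encodes Ikaros, a zinc-finger regulator of lymphoid and myeloid cells. Tamoxifen Input held 0.0356 to 2.15 CPM (median 1.35), and 7 of 8 MG_TRAP libraries held 42.7 to 113 CPM. The eighth, library J, held 26 counts or 0.687 CPM, below its own Input library. The log2 fold change was 6.53 ± 1.13 (edgeR adjusted p = 8.7e-05), with 8.5 in the first set and 5.29 in the second. First-set Input D, E and F held 1, 2 and 1 counts of Ikzf1, so the size of 8.5 depends on the prior count and is no bound. SN_input held 0.190 to 15.4 CPM (median 4.03) and PeMP_TRAP 1.91 to 182 CPM (median 23.3), higher in 7 of 8 letters with overlap. That difference was 3.57 ± 0.98 on the log2 scale (edgeR adjusted p = 0.0049).

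Runx1 (ENSMUSG00000022952, chr16:92601466-92826149, minus strand) encodes the Runt-domain factor of blood stem cells and embryonic microglia. In tamoxifen Input it held 0 to 5.82 CPM (median 0.643), and in MG_TRAP 1.54 to 45.8 CPM (median 16.3), higher in all 8 letters. The second-set groups did not overlap, but the fold change of 4.07 ± 1.61 on the log2 scale did not pass the test (edgeR adjusted p = 0.14). In PeMP_TRAP 5 of 8 libraries had no read, library F had 2 reads, and libraries E and G had 86 and 1583 reads (62.9 and 52.2 CPM). SN_input held 0 to 5.10 CPM, and the difference of 3.36 ± 1.56 on the log2 scale gave an adjusted p of 0.096. The antisense gene Gm26626 overlaps Runx1 exons, with the same limit on strand.

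Tal1 (ENSMUSG00000028717, chr4:115056426-115071755, plus strand) encodes a basic helix-loop-helix factor of blood and endothelial specification. Its tamoxifen Input level was at most 0.516 CPM, and MG_TRAP held 0 to 22.3 CPM (median 4.31), higher in 7 of 8 letters. Library D, the exception, had no read in MG_TRAP. The log2 fold change was 4.28 ± 1.60 (edgeR adjusted p = 0.11), and it passed in DESeq2 (3.81, adjusted p = 0.046). PeMP_TRAP had reads above the limit in 2 of 8 libraries, with 23 in library F (37.5 CPM) and 41 in library G (1.35 CPM), and SN_input likewise in 2 of 8. The difference between them was 1.36 ± 1.83 (edgeR adjusted p = 0.61).

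Bhlhe41 (ENSMUSG00000030256, chr6:145858243-145865558, minus strand) encodes the helix-loop-helix repressor also called DEC2. Tamoxifen Input held 4.17 to 98.9 CPM (median 68.0), and MG_TRAP held 44.7 to 532 CPM (median 333). MG_TRAP was higher in all 8 letters, with overlap between the groups because MG_TRAP D, at 44.7 CPM, lay below 7 of the 8 Input libraries. Library D was also the lowest in Input, at 4.17 CPM. The log2 fold change was 2.10 ± 0.59 (edgeR adjusted p = 0.019). That call was lost with the first set alone (1.24, adjusted p = 0.75), with RLE scaling (adjusted p = 0.081), with total counts (0.057), and when any of letters G, H, I, J or K was left out (0.056 to 0.074). SN_input held 7.39 to 193 CPM (median 135) and PeMP_TRAP 17.96 to 522 CPM (median 146), and the difference of 0.72 ± 0.57 did not pass the test (edgeR adjusted p = 0.35). Its exons overlap those of Gm43909 on the other strand, with the same limit on strand.

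The second comparison asked the same of the synaptosome fraction. There 5 of 9 factors, Spi1, Irf8, Sall1, Cebpa and Ikzf1, were higher in PeMP_TRAP than in SN_input in edgeR's test, and none was lower. Calls made up 32.3% of the 15710 genes, and 4108 of the 5074 were lower in PeMP_TRAP. The median log2 fold change of the 9 was 2.85, beside -0.75 over all genes. The same count of 5 came from the second set alone, and the first set alone called 0 of 9 (372 genes called, 3074 at an unadjusted p under 0.05) with log2 fold changes of 2.94 for Spi1, 3.24 for Irf8, 3.07 for Sall1, 4.86 for Cebpa and 5.07 for Ikzf1.

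**Figure D2:**
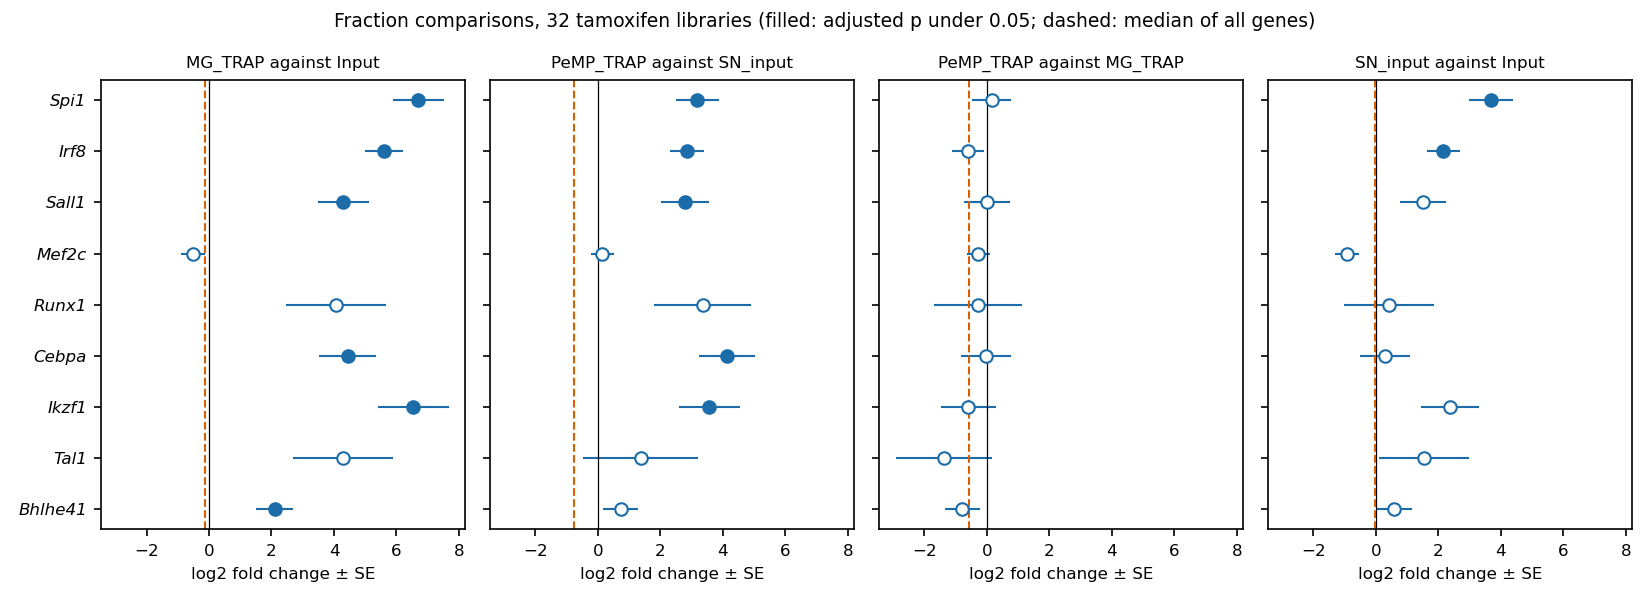
Log2 fold changes (points) with standard errors (bars) of the 9 factors in 4 fraction comparisons over 32 tamoxifen libraries; filled points passed an adjusted p of 0.05 and the dashed line is the median of all genes tested. The factors called higher number 6, 5, 0 and 2 from left to right, and in the third panel every point is within 2 of 0.

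The precipitates were then compared with each other. None of the 9 factors differed between PeMP_TRAP and MG_TRAP in edgeR's test, where 25.2% of 15710 genes were called. An unadjusted p under 0.05 was found for 5382 genes and for none of the 9. The 25.2% pools both sets, and the difference between the precipitates itself differed between sets for 15.3% of 17961 genes. The log2 differences were 0.15 ± 0.64 for Spi1, -0.61 ± 0.50 for Irf8, -0.002 ± 0.739 for Sall1, -0.27 ± 0.37 for Mef2c and -0.29 ± 1.42 for Runx1. They were -0.02 ± 0.80 for Cebpa, -0.60 ± 0.89 for Ikzf1, -1.37 ± 1.54 for Tal1 and -0.78 ± 0.57 for Bhlhe41. Their median was -0.29, beside -0.57 over all genes. These errors leave room for a change of more than 2-fold in most of the 9, so the result does not show equal levels. By mean log2 CPM, PeMP_TRAP lay below MG_TRAP by 1.11 for Spi1 and 1.13 for Sall1, each within the larger SD. PeMP_TRAP D held the highest value of both in that fraction after tamoxifen, 3289 CPM of Spi1 and 539 CPM of Sall1. Single calls appeared under other settings: Irf8 was lower with total counts (-1.39, adjusted p = 0.045) and in DESeq2 (-1.17, adjusted p = 0.046), Bhlhe41 in the second set alone (-1.24, edgeR adjusted p = 0.021), and Tal1 without letter F (-4.59, edgeR adjusted p = 0.029).

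The spread between libraries was larger in PeMP_TRAP. Over the 5 second-set libraries the SD of log2 CPM was larger in PeMP_TRAP than in MG_TRAP for 8 of 9 factors, as it was for 20 of 22 microglial surface, secreted and lysosomal genes and for 60.4% of all genes tested. Its median over the 9 was 1.51 in PeMP_TRAP, 0.42 in MG_TRAP, 0.46 in SN_input and 0.25 in Input, and over all genes 2.03, 0.95, 0.55 and 0.19. The highest second-set library exceeded the lowest 103-fold for Spi1 and 114-fold for Sall1 in PeMP_TRAP, and 2.10-fold and 2.33-fold in MG_TRAP. The lowest library was not the same for each factor: it was J for Spi1, H for Irf8, Sall1 and Bhlhe41, and I for Ikzf1. Runx1 and Tal1 had no read in H, I, J and K, at the depths given above. Ikzf1 was the exception, with an SD of 2.97 in MG_TRAP and 2.61 in PeMP_TRAP. Beside this stands the lower number of genes detected in second-set PeMP_TRAP, and its part in the spread was not tested.

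**Figure D3:**
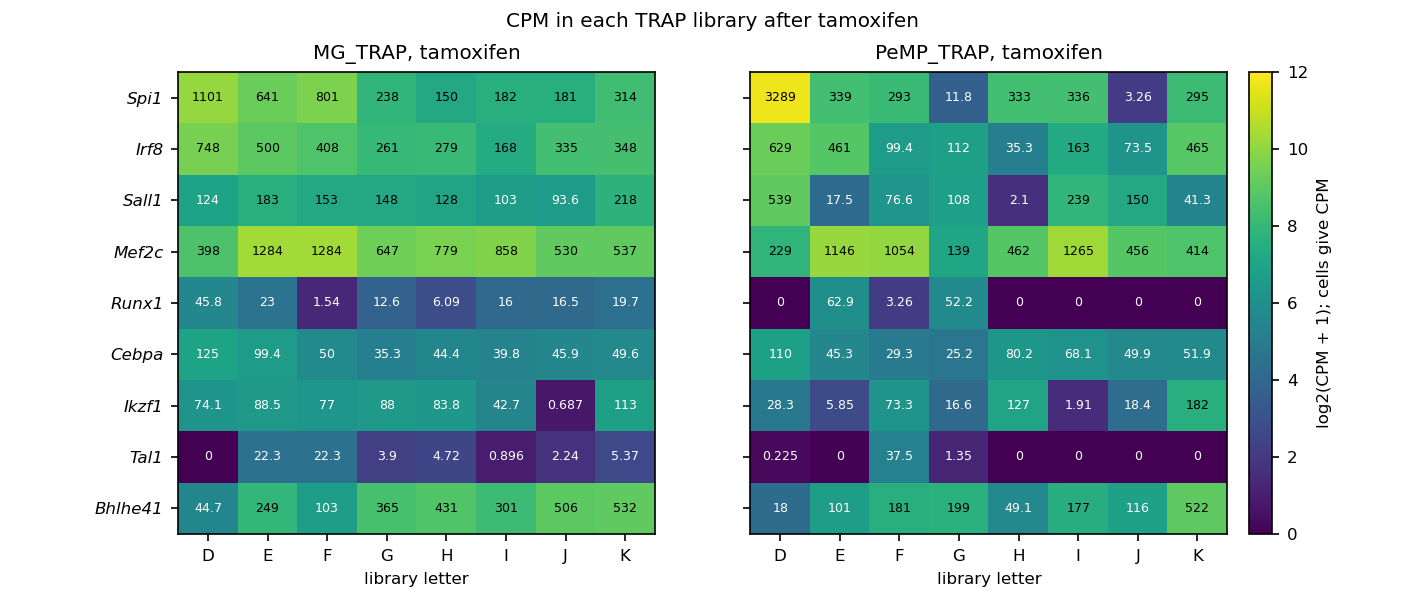
Level of each factor (rows) in each tamoxifen MG_TRAP library (left) and PeMP_TRAP library (right), letters D to K in columns; colour is log2(CPM + 1) and the printed numbers are CPM. Cebpa stays between 25.3 and 125 CPM throughout, while Spi1 runs from 3.26 to 3289 CPM and Sall1 from 2.10 to 539 CPM over the PeMP_TRAP libraries.

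The inputs were compared to ask whether the synaptosome preparation by itself changed the factors. Spi1 and Irf8 were higher in SN_input than in Input in edgeR's test, and the other 7 were not called, where 2.55% of 15710 genes were called. Spi1 was higher in all 8 letters, by 3.68 ± 0.71 on the log2 scale (edgeR adjusted p = 0.00092), and the second-set libraries did not overlap (12.5 to 25.4 CPM against 1.93 to 2.33 CPM). In first-set D, E and F, SN_input held 467, 9.88 and 28.7 CPM of Spi1 against 6.66, 4.65 and 13.7 CPM in Input. Letter D thus stood far above E and F in SN_input. Irf8 was higher in 7 of 8 letters, by 2.15 ± 0.52 (edgeR adjusted p = 0.014). The Irf8 call was lost with RLE scaling (1.42, adjusted p = 0.16), total counts (1.25, adjusted p = 0.23), DESeq2 (1.42, adjusted p = 0.075) and no filter (2.001, adjusted p = 0.10), and without letter D, G or H (adjusted p = 0.056, 0.079 and 0.051). Mef2c was lower in all 8 letters, at -0.92 ± 0.38 with TMM scaling (edgeR adjusted p = 0.26), and passed as lower with RLE scaling (-1.52, adjusted p = 0.026), total counts (-2.02, adjusted p = 0.0011), DESeq2 (-1.52, adjusted p = 0.030) and without letter D (-0.99, adjusted p = 0.049). RLE scaling moved the median of all genes in this comparison by -0.70 and total counts by -1.05 on the log2 scale, so the size of these differences is relative to the scaling. The first set alone called 0 of 9 factors (6 genes called, 785 at an unadjusted p under 0.05).

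Microglial genes outside the 9 differed between the inputs too. Of the 22 microglial surface, secreted and lysosomal genes, 20 were higher in SN_input than in Input in edgeR's test, with a median log2 fold change of 3.58 (1.65 for P2ry13 to 4.53 for Itgam). Of the 22 other macrophage and microglia transcription factors tested, 0 were called (median 0.31), and of the 11 factors of other brain cells 0 were called (median -0.92). Markers of other cells were called in part: 2 of 6 astrocyte genes, 2 of 6 oligodendrocyte genes and 2 of 7 border macrophage genes were higher, the latter led by Mrc1, a mannose receptor, at 4.90. Of the 5 nuclear retained RNAs 3 were lower, with a median of -3.03. The part of these RNAs in the Spi1 and Irf8 values was not tested.

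An interaction term gave the difference between the enrichments, PeMP_TRAP over SN_input minus MG_TRAP over Input. It was below 0 for Spi1 at -3.53 ± 0.92 and for Irf8 at -2.76 ± 0.72 (edgeR adjusted p = 0.010 for each), and the other 7 factors were not called, beside 11.3% of 15710 genes called. Both are also the factors called higher in SN_input than in Input, and the term contains those inputs. The Irf8 call was lost without the filter (-2.77, adjusted p = 0.056), and Tal1 gained one without letter F (-5.99, adjusted p = 0.049). Ikzf1 stood at -2.97 ± 1.27 (adjusted p = 0.14), Tal1 at -2.92 ± 2.17, Sall1 at -1.50 ± 1.01, Bhlhe41 at -1.38 ± 0.81, Runx1 at -0.72 ± 2.02, Cebpa at -0.31 ± 1.12 and Mef2c at 0.65 ± 0.53. The median of the 9 was -1.50, beside -0.79 over all genes. In the first set alone the term was -3.74 for Spi1 and -2.30 for Irf8 without passing the test (adjusted p = 0.69 and 0.81), and in the second set alone Bhlhe41 was also called, at -2.44 (adjusted p = 0.0031).

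Control mice give the background of the precipitation without tamoxifen. In control MG_TRAP the counts of Spi1 gave 44.6, 46.6 and 150 CPM in A, B and C, against 0.135, 4.31 and 0.355 CPM in control Input. For Irf8 the values were 61.2, 18.2 and 106 CPM against 0.203, 3.99 and 0.887 CPM. Neither pair of groups overlapped. With Runx1, 3 of 9 factors lay above control Input in every library, as did 5.84% of all genes tested. The 22 microglial marker genes stood likewise, at 3808 to 7546 CPM in control MG_TRAP and 497 to 562 CPM in control Input, and the neuronal markers at 6705 to 8921 CPM and 11236 to 16752 CPM. The log2 fold changes of 5.79 ± 1.41 and 5.34 ± 1.47 did not pass edgeR's test (adjusted p = 0.20 and 0.34; unadjusted p = 0.00019 and 0.00077), and both passed in DESeq2 (adjusted p = 0.00039 and 0.0034), which called 1.57% of genes. edgeR called 0 of 9 factors in this comparison and 0.0135% of 14771 genes, with 1101 genes at an unadjusted p under 0.05. Runx1 was at or under 3 counts in all 3 control Input libraries and held 1.79, 4.06 and 6.68 CPM in MG_TRAP, at least 7.85-fold higher than the floor. Control PeMP_TRAP against SN_input also gave 0 called factors and 0 called genes (percent called 0, 2577 at an unadjusted p under 0.05; DESeq2 called Tal1 and 8.99% of genes). By value alone, Sall1, Cebpa, Ikzf1 and Bhlhe41, 4 of 9, were lower in all control PeMP_TRAP libraries than in any control SN_input library, beside 18.6% of all genes tested. Cebpa had no read in control PeMP_TRAP and Ikzf1 had 1, 2 and 0, and 3 counts there make up to 4.16 CPM. That limit is above 2 of the 3 control SN_input values of Cebpa (4.52, 3.27 and 2.57 CPM) and above the lowest of Ikzf1 (3.02, 18.5 and 19.7 CPM), so groups without overlap cannot be read for these 2 factors. Sall1 held 0, 5.54 and 0.760 CPM against 8.55, 22.9 and 32.6 CPM.

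Tamoxifen was then set against control within each fraction of the first set, 3 libraries against 3. In MG_TRAP 5 of 9 factors lay above the controls without overlap, Spi1, Irf8, Sall1, Cebpa and Bhlhe41, as did 15.3% of all genes tested. Spi1 held 1101, 641 and 801 CPM after tamoxifen against 44.6, 46.6 and 150 CPM, a log2 fold change of 3.17 ± 1.23 (edgeR adjusted p = 0.24). edgeR called 0 of 9 factors and 0 of 14771 genes here (percent called 0, with 2351 genes at an unadjusted p under 0.05), and DESeq2 called Spi1, Cebpa and Bhlhe41 (adjusted p = 0.045, 0.045 and 0.037) and 6.17% of genes. The median of the 9 was 3.17, beside -0.14 over all genes. Marker lists of other cells differed between the same MG_TRAP libraries, though edgeR called none of their genes. B and plasma cell genes summed to 0.507 to 6.35 CPM in the controls and 31.6 to 655 CPM after tamoxifen, and border macrophage genes to 0.0577 to 33.5 CPM and 164 to 312 CPM. Both sums were higher after tamoxifen without overlap. The sums were lower without overlap for neuronal markers (6705 to 8921 CPM in the controls, 1591 to 2553 CPM after tamoxifen), astrocyte markers (666 to 1771 CPM and 270 to 427 CPM) and oligodendrocyte markers (1966 to 5797 CPM and 447 to 1541 CPM). Their part in the factors' differences was not tested.

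In PeMP_TRAP 3 of 9 were higher, Spi1, Sall1 and Cebpa, where 11.1% of 14771 genes were called. DESeq2 called 6 of 9 and 29% of genes. Spi1 held 3289, 339 and 293 CPM against 5.28, 2.77 and 57.0 CPM (5.49 ± 1.38, edgeR adjusted p = 0.013). Sall1 held 539, 17.5 and 76.6 CPM against 0, 5.54 and 0.760 CPM (6.37 ± 1.86, edgeR adjusted p = 0.026). Cebpa held 110, 45.3 and 29.3 CPM after tamoxifen and no read in any of the 3 control libraries, and was at least 14.8-fold higher than the floor (edgeR adjusted p = 0.021).

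These 3 calls rest on few libraries. Spi1 lost its call without letter D (edgeR adjusted p = 0.052), Cebpa without C or F (0.053 and 0.051), and Sall1 without A, C, D or F (0.050 to 0.073), while Bhlhe41 gained one without D (0.018). Ikzf1 and Bhlhe41 also lay above the controls without overlap in PeMP_TRAP but did not pass (adjusted p = 0.10 and 0.056), and Ikzf1, at or under 3 counts in each control library, was at least 8.62-fold higher than the floor. With Spi1, Sall1 and Cebpa, 5 of 9 factors did not overlap in this way, as did 12.2% of all genes tested.

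Markers of other cells also differed between these PeMP_TRAP libraries. The B and plasma cell genes summed to 0.406, 1.39 and 27.7 CPM in control A, B and C and to 366, 9.51 and 3986 CPM in tamoxifen D, E and F. Border macrophage genes summed to 518, 2.77 and 5.70 CPM in the controls and 1704, 966 and 481 CPM after tamoxifen. Both lists were thus higher in most tamoxifen libraries, with overlap. The endothelial sum was 1768, 590 and 511 CPM in the controls and 985, 5.85 and 91.2 CPM after tamoxifen. Neuronal markers summed to 3376 to 15052 CPM in the controls and 945 to 7005 CPM after tamoxifen. The 5 nuclear retained RNAs, read as a sign of RNA from nuclei, summed to 984 to 38232 CPM in the controls and 584 to 3994 CPM after tamoxifen, and 4 of the 5 were lower in edgeR's test (median log2 fold change -4.57). The part of these RNAs in the factors' differences was not tested.

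In the inputs, tamoxifen against control, edgeR called 0 of 9 factors and 0 of 14771 genes for Input (percent called 0, 452 at an unadjusted p under 0.05) and for SN_input (percent called 0, 495). Spi1, Irf8 and Sall1, 3 of 9, had higher values in tamoxifen Input than in control Input without overlap, as did 4.14% of all genes tested. Spi1 held 6.66, 4.65 and 13.7 CPM against 0.135, 4.31 and 0.355 CPM. In SN_input Ikzf1, 1 of 9, had lower values after tamoxifen without overlap, as did 6.63% of all genes tested. It held 0.190, 0.956 and 2.25 CPM against 3.02, 18.5 and 19.7 CPM, from 1, 3 and 4 reads after tamoxifen.

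Control PeMP_TRAP held 54.9, 0 and 154 CPM of Tal1 in A, B and C, from 135, 0 and 405 reads, while control SN_input was at or under 3 counts in every library. The mean of control PeMP_TRAP was at least 63.8-fold higher, and libraries B of both fractions had no read. Tamoxifen PeMP_TRAP of the first set held 0.225, 0 and 37.5 CPM. The endothelial marker list moved with it in part: its 6 genes summed to 1768, 590 and 511 CPM in control PeMP_TRAP A, B and C, and to 3.27 to 24.04 CPM in control SN_input, none of the 6 at 0 throughout either group. The endothelial sum was 985 CPM in tamoxifen PeMP_TRAP D, where Tal1 had 1 read, and its part in the Tal1 values was not tested. Cldn5 of the endothelial list held 22.2 to 334 CPM in control PeMP_TRAP (median 193) and at most 1.46 CPM in tamoxifen PeMP_TRAP. After tamoxifen, Cldn5 and Ly6c1 were lower in first-set PeMP_TRAP in edgeR's test (log2 -8.44 and -13.3, adjusted p = 0.036 and 0.019). Flt1, Pecam1, Cdh5 and Slco1a4 were not called there, at -0.97, -2.07, -8.02 and -9.41 (adjusted p = 0.72, 0.49, 0.075 and 0.054).

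The difference between sets was tested for each fraction comparison. For MG_TRAP against Input and for SN_input against Input no gene of 17961 differed between sets (percent called 0 in both). For PeMP_TRAP against SN_input 15.1% of genes differed and for PeMP_TRAP against MG_TRAP 15.3%, and among the 9 factors Tal1 alone was called, in the former (edgeR adjusted p = 0.037). The other 8 factors had adjusted p of 0.57 or more in these 2 tests.

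Other gene lists place the factors. The 22 microglial surface, secreted and lysosomal genes were all higher in MG_TRAP than in Input, with a median log2 fold change of 6.56 (5.62 for Cd68 to 7.28 for Aif1), and all higher in PeMP_TRAP than in SN_input, with a median of 3.47. Of 24 other macrophage and microglia transcription factors, 22 were tested, and 9 were higher in MG_TRAP (median 3.07), led by Irf5 at 7.02, with Bhlhe40, the close relative of Bhlhe41, lowest at -0.79. In PeMP_TRAP against SN_input 10 of these 22 were higher and 1, Bhlhe40, was lower (-3.84). Of 13 transcription factors of neurons, astrocytes, oligodendrocytes and endothelium, 11 were tested, and 0 passed in MG_TRAP against Input (median -1.45) while 6 were lower in PeMP_TRAP against SN_input (median -2.84), down to -7.35 for Olig2, an oligodendrocyte factor.

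Between the precipitates the lists differed in their counts. Of the 22 microglial genes 3 were higher and 2 lower in PeMP_TRAP than in MG_TRAP (median 0.61), with C1qa, a complement subunit, at 1.42 and P2ry12, the purine receptor of microglial processes, at -2.16. Of the 22 other macrophage factors 1 was lower, Bhlhe40 at -5.14, and of the 11 factors of other brain cells 6 were lower (median -2.79). The lists were not tested against each other.

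**Figure D4:**
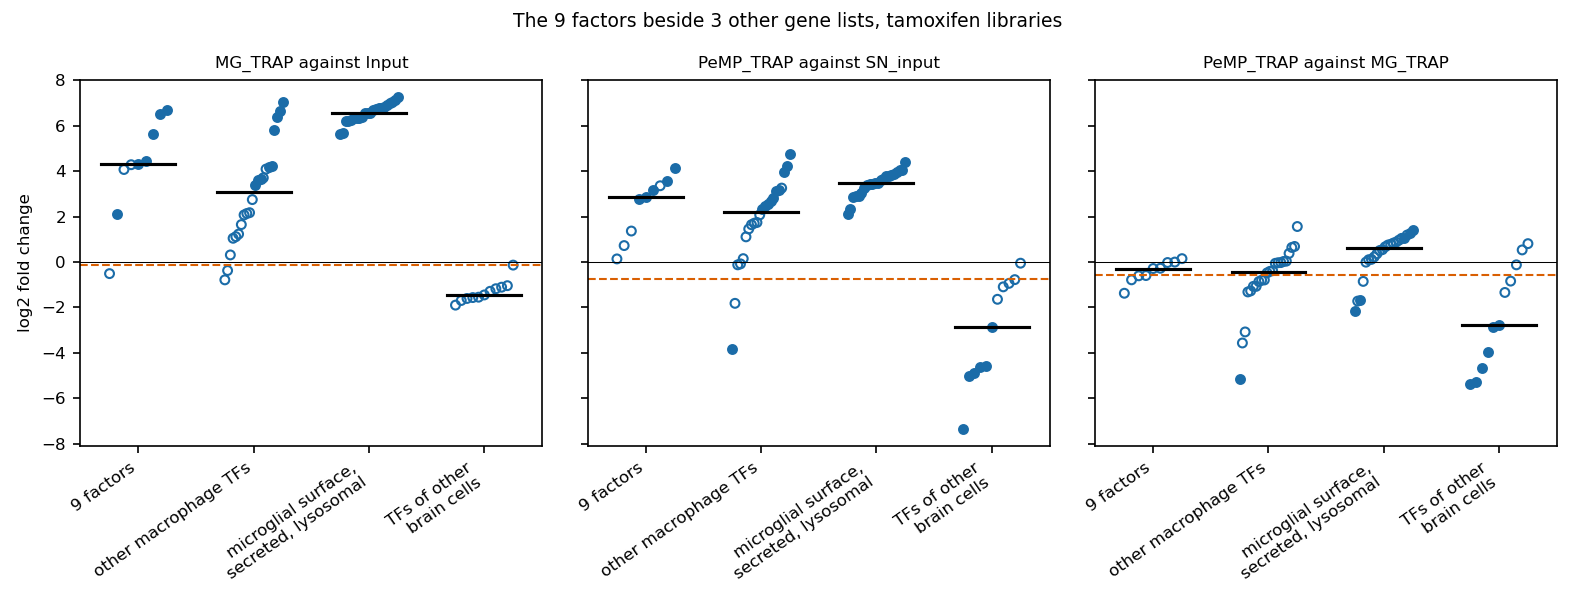
Log2 fold change of each gene in 4 lists for 3 comparisons over 32 tamoxifen libraries; filled points passed an adjusted p of 0.05, bars are list medians and the dashed line is the median of all genes. In the right panel the 9 factors lie between -1.37 and 0.15, and none is filled.

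Markers of other blood cells were read because Spi1, Irf8, Ikzf1 and Cebpa are also genes of B cells, granulocytes or both. The 8 B and plasma cell genes summed to 956 to 2421 CPM in second-set PeMP_TRAP, 52.6 to 240 CPM in second-set MG_TRAP and 4.14 to 12.4 CPM in second-set SN_input, and most of the PeMP_TRAP sum was Igkc, an immunoglobulin chain, at 891 to 2091 CPM. Cd79a, a part of the B cell receptor complex, and Pax5, a B cell transcription factor, were at 0 in all second-set PeMP_TRAP libraries. Cd79b, the partner of Cd79a, was at 0 to 111 CPM there (median 0), and Jchain, a chain of secreted immunoglobulin, at 7.33 to 318 CPM. Of the 5 genes of this list that were tested, 3 were higher in MG_TRAP than in Input, with Cd79b at 6.29 and Jchain at 7.40 on the log2 scale (edgeR adjusted p = 0.0068 and 0.0049), and 4 were higher and 1 lower in PeMP_TRAP than in SN_input. In first-set tamoxifen PeMP_TRAP the sum was 366, 9.51 and 3986 CPM in D, E and F. Ikzf1 was at 28.3, 5.85 and 73.3 CPM and Irf8 at 629, 461 and 99.4 CPM in the same libraries. In second-set PeMP_TRAP G to K the sum was 1081, 956, 1567, 2039 and 2421 CPM. Ikzf1 was there at 16.6, 127, 1.91, 18.4 and 182 CPM, and Irf8 at 112, 35.3, 163, 73.5 and 465 CPM. The part of these cells in the factors' values was not tested. The 5 neutrophil markers were at 0 in every tamoxifen PeMP_TRAP library, among them Camp and Mpo. The 7 border macrophage markers summed to 276 to 1704 CPM in tamoxifen PeMP_TRAP, 118 to 312 CPM in MG_TRAP, 33.4 to 113 CPM in SN_input and 1.21 to 18.3 CPM in Input. In MG_TRAP against Input 3 of these 7 were higher in edgeR's test, Mrc1 at 5.32, Pf4, a chemokine, at 4.19 and Stab1, a scavenger receptor, at 5.60 on the log2 scale (adjusted p = 0.012, 0.031 and 3.5e-07), with a list median of 4.19 beside 4.30 for the 9 factors. Cd163 was at 0 in all 8 PeMP_TRAP libraries and stood at -0.37 in MG_TRAP against Input, and the part of these cells in the factors' values was not tested.

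Compared per kilobase of exon, the order of the factors differed between fractions. In tamoxifen MG_TRAP the mean log2 CPM per kilobase was highest for Spi1 at 7.01 ± 1.10 (SD, n = 8), followed by Irf8 at 5.63, Mef2c at 5.54, Bhlhe41 at 5.21, Sall1 at 4.72 and Cebpa at 4.40. Spi1 stood above Irf8 by more than the larger SD, and the steps from Irf8 down to Ikzf1 at 2.94 ± 2.35 were within it. Runx1 at 0.10 and Tal1 at -0.35 were lowest. These means pool both sets, which did not order the factors alike. Median CPM per kilobase was 64.1 for Bhlhe41 and 39.5 for Irf8 in second-set MG_TRAP, and 15.4 and 70.8 in first-set tamoxifen MG_TRAP. PeMP_TRAP gave Spi1 first at 5.89 ± 3.14 and Mef2c second at 5.01 ± 1.14, with the steps down to Ikzf1 all within the larger SD, then a step of 5.48 to Tal1. In Input Mef2c was first at 6.10 ± 0.70, beyond the SD from Bhlhe41 at 2.90, and Sall1, Spi1 and Irf8 followed at 0.43, 0.40 and 0.05 without differing beyond their SD. Across fractions, for each factor but Mef2c the highest mean level was in MG_TRAP, with PeMP_TRAP second and, except for Tal1, within the larger SD of it; for Mef2c it was in Input, and no step between its fractions exceeded the SD.

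Across the 32 tamoxifen libraries, the gene whose log2 CPM was most like that of each factor was sought among protein-coding genes with an average log2 CPM of at least 2, with Pearson's r as the measure. It was Rnase4 for Spi1 (r = 0.92), Arhgdib for Irf8 (0.94), Alox5ap for Sall1 (0.91) and Cmtm7 for Cebpa (0.93). Ikzf1 was most like Wasf2 (0.85), Mef2c most like Ddx24 (0.79), Bhlhe41 most like Zfp691 (0.79) and Runx1 most like Myd88 (0.77). Tal1 lay below an average log2 CPM of 0 and was not matched. The libraries share fractions, letters and sets, so these are descriptions of joint patterns.

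The authors' deposited table covers the first set and gives 3 comparisons, with an FDR under 0.05 for 6 of 9 factors in MG_TRAP against Input (9.40% of 13634 genes), 1 of 9 in SN input against Input (1.38%) and 6 of 9 in PeMP_TRAP against SN input (17.9%). Its headers name tamoxifen for the precipitates but do not say whether the inputs were control, tamoxifen or both, unlike the tamoxifen-only comparisons above. In the authors' deposited table Runx1 is among those 6 in MG_TRAP at a log2 fold change of 6.09 (FDR 0.022), and Bhlhe41 is not, at 2.55 (FDR 0.096). For PeMP_TRAP against SN input the authors' deposited table gives Runx1 at 5.81 (FDR 0.020) and Ikzf1 at 3.07 (FDR 0.076). Tal1 is given there at 7.36 in PeMP_TRAP against SN input (FDR 0.0059) in the authors' deposited table. For Mef2c the authors' deposited table gives -0.90 in MG_TRAP (FDR 0.54) and -0.39 in PeMP_TRAP (FDR 0.76).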

How the data were processed

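RNA was measured by RNA-seq (SMART-Seq v4 and NEBNext Ultra II, without strand marks, per the labels' protocols) in 44 libraries. The values deposited by the authors are raw counts from HTSeq, one whole number for each Ensembl identifier. Per the submitters' processing notes the tools were FastQC 0.11.7, Trimmomatic 0.38, Bowtie2 2.3.5, STAR 2.7.0d, HTSeq 0.9.1 and edgeR; their settings and the genome build are not given in the sources used here. The authors' deposited table covers the first set and holds log2 values (CPM and fold changes), p-values, FDR and the score of a likelihood ratio test, per the file headers; it served only as a comparison. First-set files list 54146 gene identifiers and second-set files 55359; the 50714 in both were used, and the rest held 0.0232% to 0.795% of assigned reads. Rows that name no gene, 27.0% to 93.4% of a library's reads, were left out.

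Gene positions, exon lengths and symbols came from GENCODE M21 (GRCm38). Fits used edgeR 4.0.16 in R 4.3.3: TMM scaling, filterByExpr (minimum count 10), a quasi-likelihood F test, and Benjamini-Hochberg adjustment over all genes tested at 0.05. Fraction comparisons used the 32 tamoxifen libraries with set as a covariate, and comparisons with control mice the 24 first-set libraries. The standard error is the log2 fold change over the root of F. CPM used TMM effective library sizes, with a prior count of 2 on the log2 scale. Where a fold is printed as at least a value, every library of the lower group had at most 3 counts. The fold then divides the other group's mean CPM by the largest CPM that 3 counts make in the lower group. Such limits cover counting error only, since reads carry no molecular identifiers. Alternatives were DESeq2 1.42.0, RLE and total-count scaling, no filter, a replicate block, each set alone or with its own fraction effect, and leaving out each letter. The scripts were tested on simulated data. Named genes are the 9 factors, the most correlated other gene of each, and the highest and lowest of each list; other names were chosen after their values were seen. The members, lists and tests were chosen with earlier results of these data known.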

Additional observations from a re-analysis of the deposited data

Results flagged for a closer look

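Levels of the 9 factors were screened for single libraries far from the other 7 of their tamoxifen group, in 36 groups of 8 libraries, and 7 were found. The limit used gives about 1 in 20 groups by chance where all values come from a single normal population. These groups join both sets, share libraries and hold values from no read, so that rate need not apply here. Library D stood apart in SN_input for Spi1, high at 8.87 log2 CPM, for Sall1, low at -1.59, and for Cebpa, low at -2.80 (no read). Cebpa also had no read in Input F (-2.80). Ikzf1 was low in MG_TRAP J at -0.27, Tal1 high in PeMP_TRAP F at 5.23, and Bhlhe41 low in Input D at 2.11.

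The enrichment of Tal1 in PeMP_TRAP over SN_input differed between the sets, with the second set lower by -12.3 on the log2 scale (edgeR adjusted p = 0.037, interaction of set and fraction). All 3 first-set SN_input libraries had no Tal1 read and first-set PeMP_TRAP libraries D, E and F had 1, 0 and 23, while in the second set 4 of 5 PeMP_TRAP libraries had none. The size of that value depends on the prior count and is no bound.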

How the results depend on the processing

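The number of factors called kept within 1.5 times of its value under most alternatives. MG_TRAP against Input gave 3 of 9 with the first set only. PeMP_TRAP against SN_input gave 0 with the first set only. PeMP_TRAP against MG_TRAP gave 1 with total counts, with DESeq2 and with the second set only. SN_input against Input gave 1 without the filter and 0 with the first set only. The interaction gave 1 without the filter and 0 with the first set only. DESeq2 called 3 in MG_TRAP and 6 in PeMP_TRAP for tamoxifen against control, and 2 in MG_TRAP against Input and 1 in PeMP_TRAP against SN_input in control mice; the former enrichment gave 1 without the filter. The cause was not tested. Leaving out each letter in turn gave 5 to 6 for MG_TRAP against Input, 5 to 5 for PeMP_TRAP against SN_input, 0 to 1 between precipitates, 1 to 2 between inputs, 2 to 3 for the interaction and 1 to 3 for PeMP_TRAP tamoxifen against control; the other 5 comparisons stayed at 0. A filter by fraction and set and a fit on control libraries only, both added after seeing the data, changed no count.

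Deviations of same-lettered libraries correlated over 0.1 for 3, 1, 2 and 0 of 11 letters in the 4 pairs of fractions, so the fits did not use letters as a block. As a hint from the data, 7, 7, 7 and 6 of 11 libraries correlated best with their own letter, and not every one did. A replicate block moved the count to 7 for MG_TRAP against Input, adding Runx1 (5.61, edgeR adjusted p = 0.044), and left 5, 0, 2 and 2 for the other tamoxifen comparisons in the report's order, and 0 for each control enrichment. Over single factors in the 5 tamoxifen comparisons, 670 fold changes kept direction and call, 27 lost the call, 12 gained one, 56 changed sign without a call on either side, and none reversed a call. In the first-set tamoxifen libraries the median count of Runx1 was 1 in Input and 0 in SN_input, and that of Tal1 2 and 0. Runx1 had 30 reads in Input E and 16 in SN_input E. At such counts the lack of a call between these inputs does not show equal levels.

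Over all genes, the split of calls moved with scaling: MG_TRAP against Input gave 733 higher and 338 lower with TMM, 594 and 528 with RLE and 650 and 432 with total counts, and SN_input against Input gave 327 and 73, 134 and 109, and 93 and 230. The interaction gave 61 higher and 1709 lower genes, against 23 and 826 with the replicate block and 92 and 4508 with the second set only. With the first set only, calls over all genes were 325 higher and 4 lower, 311 and 61, 0 and 0, 6 and 0, and 0 and 0 in the report's order of the 5 tamoxifen comparisons. Scaling moved the median of all genes by -0.52 with RLE in MG_TRAP against Input, -0.53 between precipitates and -0.34 in PeMP_TRAP against SN_input.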
